A study of Homo sapiens with 4 samples.

Results

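The USP genes encode ubiquitin-specific proteases, the largest family of deubiquitinases. The members described here are the genes of the deposited table whose symbol is USP followed by a number and at most 1 letter, without the Y-linked copy of USP9X, and 50 of the 60595 genes in the table met that rule. Of these, 42 reached 1 FPKM in at least 2 of the 4 libraries and were tested. The libraries are RNA sequencing of A375, an established human melanoma cell line labelled as wild type, grown in serum-containing medium. The control group received DMSO, the solvent, and the treated group received paroxetine hydrochloride, a serotonin reuptake inhibitor, with 2 libraries in each group. No source used here states the dose or how long the cells were exposed, and the work used 1 cell line, so every statement is about A375. The comparison is between the RNA levels of the paroxetine and DMSO groups.

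Ubiquitin is a small protein that is joined to other proteins, often as chains, and that marks them for the proteasome, for sorting in endosomes, for DNA repair or for other changes of fate. Deubiquitinases cut it off again, and the USP enzymes do so with a catalytic cysteine. Single USP enzymes are known for narrow roles: USP1 acts on the Fanconi anaemia proteins and PCNA, USP7 on MDM2, USP14 on proteins held by the proteasome, USP5 on unanchored chains and USP22 on histone H2B. In melanoma cells USP13 is known to stabilise MITF, the transcription factor of the pigment lineage.

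Values are in FPKM, fragments scaled by transcript length and by mapped fragments per library, so that levels can be compared between genes. Means are given as mean ± SD with n = 2 libraries per group. Changes are paroxetine minus DMSO in log2(FPKM + 1) ± SE, a scale that understates the change of genes with low values. A gene was called higher or lower at a limma adjusted p under 0.05, with the Benjamini-Hochberg adjustment over all 15511 genes tested. Whether the replicates are separate cultures is not labelled, and p-values then cover only how far these samples vary, which may be technical variation.

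The 4 libraries summed to 606197 to 655607 FPKM, and depth in reads is unknown. Between 15021 and 15223 genes reached 1 FPKM per library, and all 42 tested USP genes did so in each of the 4. Genes encoded in mitochondrial DNA held 10.9% to 13.1% of all FPKM, with the lowest share in paroxetine replicate 1. Of 7 melanocytic markers, SOX10 was called higher (187 to 273 FPKM, limma adjusted p = 0.00165) and S100B lower (5.88 to 2.30 FPKM, limma adjusted p = 0.0134, a call lost under 2 of the 11 alternatives), and MITF is described with USP13. Of the others, PMEL, MLANA and DCT stayed under 1 FPKM, and TYR was listed at 0 in all 4 libraries, so the pigment genes that define differentiated melanocytes were at or near 0. All 5 epithelial markers were under 1 FPKM. Of the 5 leukocyte markers PTPRC and CD3E were under 1 FPKM, LYZ was at 1.28 and 1.85 FPKM under DMSO and 0.983 and 0.882 FPKM under paroxetine and was not called, and CD68, a lysosomal protein, was called higher (23.5 to 54.1 FPKM). Of the 5 fibroblast markers COL1A1, COL3A1 and DCN were under 1 FPKM, LUM was not called (4.00 and 5.81 FPKM) and PDGFRB was called higher (2.67 to 4.73 FPKM, limma adjusted p = 0.0485), a call lost under 7 of the 10 alternatives in which it was tested. Of the 4 endothelial markers PECAM1, CDH5 and VWF were under 1 FPKM and KDR was not called (4.16 and 2.91 FPKM). Bulk values cannot tell fewer cells of a kind from less RNA per cell.

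Most of the family was expressed, over a wide range of levels. USP22, the deubiquitinase of the SAGA coactivator complex, was highest at 79.7 ± 2.13 FPKM with DMSO, followed by USP14 (66.2 ± 3.37), USP11 (64.4 ± 1.92), USP5 (51.0 ± 4.95) and USP7 (46.8 ± 1.07). USP22 was above the others in both DMSO libraries, while the DMSO values of USP14 and USP11 overlapped, as did those of USP5 and USP7. These 5 genes held 32.6% and 31.6% of the summed USP signal under DMSO and 27.9% and 27.2% under paroxetine. The sum over all 50 genes was 965 and 955 FPKM with DMSO and 972 and 956.5 FPKM with paroxetine, so the groups overlapped in the total. At the low end, 8 genes did not reach the filter and ranged from 0 to 0.647 FPKM. USP26 and USP29, genes known from the testis, were listed at 0 in every library. USP51, a histone H2A deubiquitinase, was listed at 0.0849 FPKM in DMSO replicate 1 and at 0 in the other libraries. USP41, a close copy of USP18, was listed at 0.314 and 0.226 FPKM under DMSO and at 0 in each library under paroxetine. USP2, USP6, USP44 and USP50 completed the group below the filter.

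**Figure D1:**
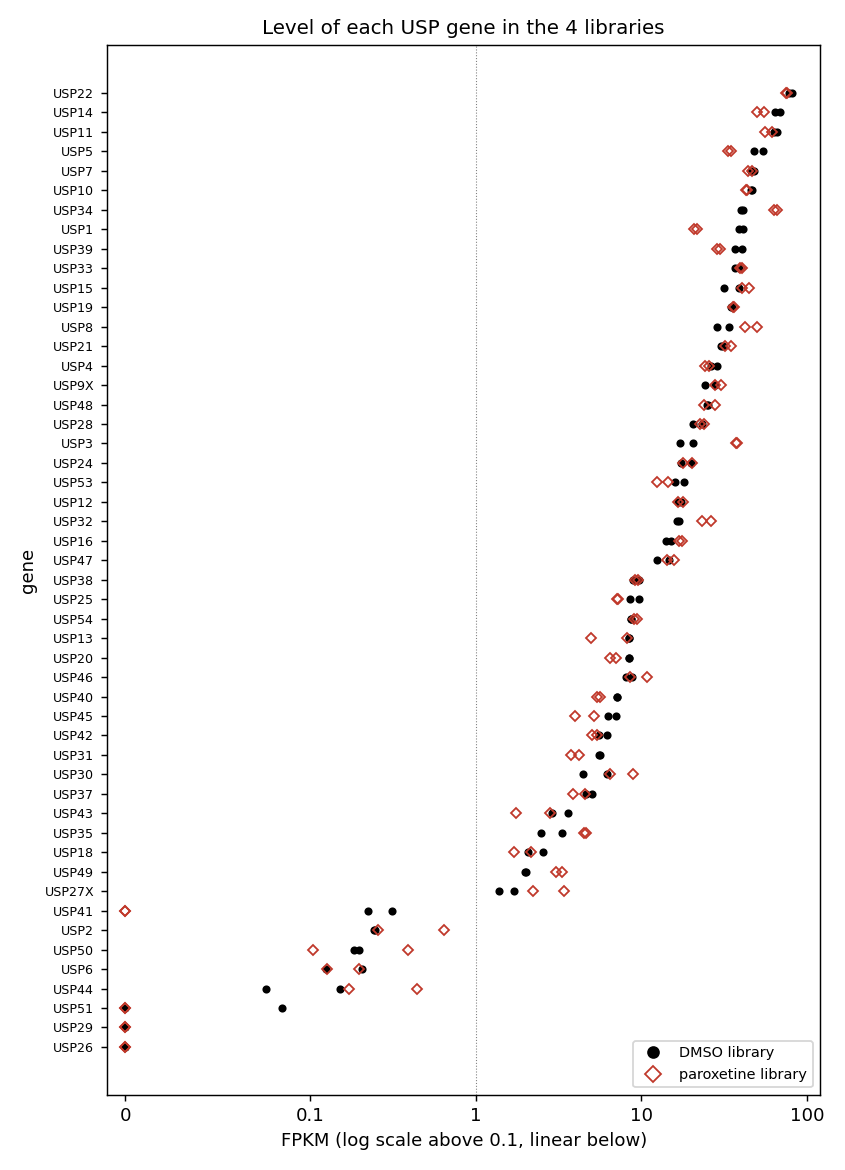
FPKM of all 50 USP genes in the 2 DMSO libraries (black circles) and the 2 paroxetine libraries (open diamonds), on a horizontal axis that is logarithmic above 0.1 FPKM and linear below, with genes ordered by their DMSO mean. Levels run from 0 to 81.2 FPKM, 42 genes lie to the right of the dotted line at 1 FPKM, and for most genes the 4 symbols lie close together.

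Few USP genes were called, and those called moved in both directions. Of the 42 tested, 4 were called higher (USP3, USP34, USP8 and USP32), 4 lower (USP1, USP5, USP39 and USP14) and 34 were not called. The 8 called genes are 19.0% of those tested, against 38.6% of all genes tested (18.1% higher and 20.5% lower) and 43% of the protein-coding genes tested. Among genes with a mean of 5 FPKM or more, 8 of 35 USP genes were called (22.9%), against 47.7% of all genes at that level. The median change of the tested USP genes was 0.01, and that of all genes tested was -0.0047. The median size of change without its sign was 0.25 for the USP genes and 0.33 for all genes tested. A change of 1.5-fold or more on the log2(FPKM + 1) scale was found for 3 USP genes, USP3, USP1 and USP34, or 7.14%, against 26.2% of all genes tested, and 0 USP genes reached 2-fold, against 8.55%. No test compared the family with other genes, so these shares describe it only. The groups did not overlap for 33 of the 42 genes (paroxetine above for 15 and below for 18), which is 78.6%, against 71.6% of all genes tested.

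**Figure D2:**
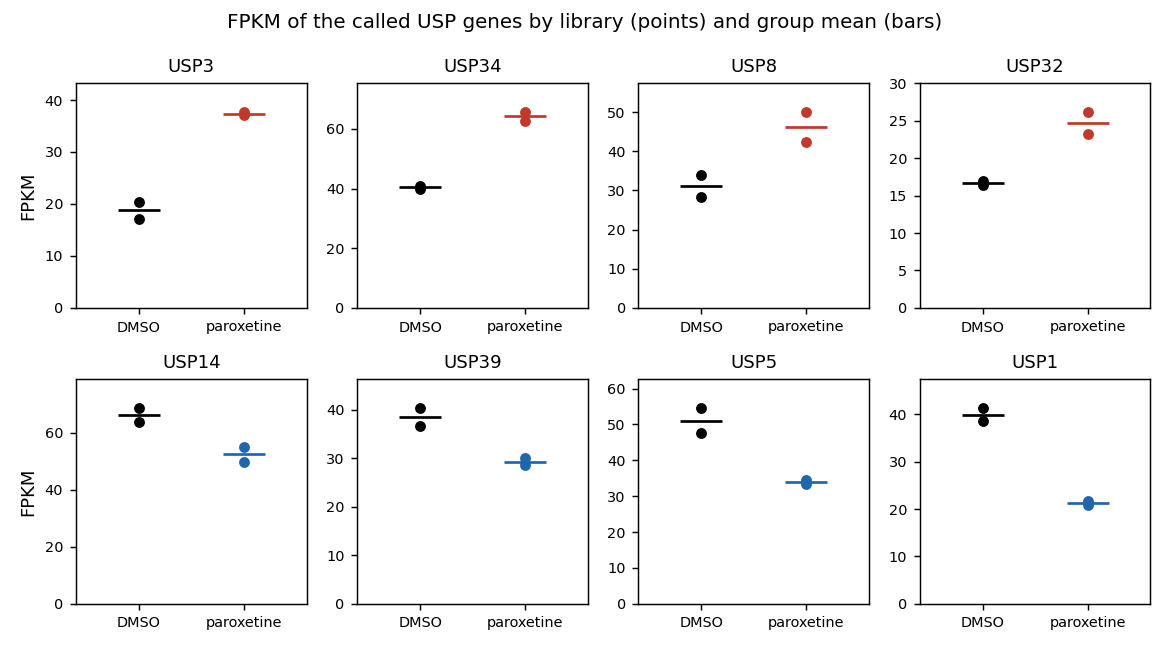
FPKM of the 8 called USP genes, with a point for each library and a bar for the mean of each group of 2, on linear axes that start at 0. The upper row holds the 4 genes called higher and the lower row the 4 called lower. In every panel the paroxetine points lie apart from the DMSO points, with the largest log2 changes for USP3 (17.1 and 20.4 against 37.1 and 37.7 FPKM) and USP1 (38.6 and 41.3 against 20.8 and 21.8 FPKM).

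USP1, which with its cofactor WDR48 (also called UAF1) removes the single ubiquitin from FANCD2, FANCI and PCNA in DNA repair, fell the most (ENSG00000162607, chromosome 1, 62436297 to 62451804). It was at 38.6 and 41.3 FPKM under DMSO and 20.8 and 21.8 FPKM under paroxetine. The groups were far apart, and the libraries within each group were close. The level fell from 39.9 ± 1.95 to 21.3 ± 0.721 FPKM, a log2 change of -0.88 ± 0.07 (limma adjusted p = 0.00109), with a 95% interval of -1.06 to -0.69. WDR48 was at 29.3 and 26.8 FPKM under DMSO and 34.5 and 34.3 FPKM under paroxetine and was called higher (log2 change 0.29 ± 0.07, limma adjusted p = 0.0300). USP1 was therefore above its cofactor in FPKM in both DMSO libraries, at ratios of 1.32 and 1.54, and below it in both paroxetine libraries, at 0.602 and 0.635. ATAD5, which brings USP1 and WDR48 to PCNA, fell from 6.77 to 2.41 FPKM. The USP1 substrates FANCD2, FANCI and PCNA also fell: FANCD2 went from 20.7 to 5.60 FPKM, FANCI from 68.0 to 22.3 and PCNA from 197 to 52.5, each with a larger log2 change than USP1 (-1.72, -1.56 and -1.89). Genes of cycling cells moved with them. All 12 genes of that list, such as MKI67 (44.7 to 17.4 FPKM), were called lower, against 20.5% of all genes tested. The summed level of the 12 was 1161 and 1174 FPKM under DMSO and 398 and 406 FPKM under paroxetine. The part that the cell cycle state of the culture has in the USP1 result was not tested. The call of WDR48 was lost under 5 of the 11 alternatives, with adjusted p up to 0.120.

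The promoter window of USP1, the largest fall of the family, is shown to place it in the genome, with that of USP32, which rose and holds a motif described further on. They are RefSeq sequences on GRCh38.p14 and run from 250 bases before to 50 bases after the annotated start, 5′ to 3′ on the strand of the gene. The USP1 window is at chr1:62436145-62436444, plus strand, and the USP32 window at chr17:60392084-60392383, minus strand. The RefSeq start of USP32 lies inside the GENCODE span of the gene, which begins farther upstream. Capitals mark the only searched motif found in these windows.
USP1: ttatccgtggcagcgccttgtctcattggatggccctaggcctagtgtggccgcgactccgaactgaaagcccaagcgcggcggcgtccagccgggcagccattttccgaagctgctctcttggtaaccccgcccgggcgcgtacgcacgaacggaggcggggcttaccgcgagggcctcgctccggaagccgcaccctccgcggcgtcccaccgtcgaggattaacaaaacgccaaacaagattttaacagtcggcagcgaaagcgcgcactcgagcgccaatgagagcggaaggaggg
USP32: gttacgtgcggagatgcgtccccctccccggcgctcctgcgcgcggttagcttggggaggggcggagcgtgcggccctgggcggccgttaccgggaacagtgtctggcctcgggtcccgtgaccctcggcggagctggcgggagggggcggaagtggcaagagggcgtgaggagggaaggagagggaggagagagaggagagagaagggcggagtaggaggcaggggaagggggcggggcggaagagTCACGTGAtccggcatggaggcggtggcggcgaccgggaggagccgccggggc
G and C make up 64.3% of the USP1 window and 72.7% of the USP32 window. The median was 70% over the 38 USP genes with an entry and 58.3% over all 27305 genes in the table of promoters.

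USP5, which takes apart unanchored ubiquitin chains so that ubiquitin can be used again, fell second most (ENSG00000111667, chromosome 12, 6852128 to 6866632). Its level was 54.5 and 47.5 FPKM under DMSO and 33.3 and 34.5 FPKM under paroxetine. DMSO replicate 1 was the higher of the controls, and both paroxetine libraries were well below both. The mean fell from 51.0 ± 4.95 to 33.9 ± 0.883 FPKM, a log2 change of -0.57 ± 0.08 (limma adjusted p = 0.00560). Of the genes that encode ubiquitin precursors, UBB was at 475 FPKM with DMSO and 524 FPKM with paroxetine and RPS27A at 921 and 835 FPKM, and neither was called. UBA1, the main ubiquitin-activating enzyme, was at 161 and 146 FPKM and was not called, and UBA6, the second such enzyme, was called lower (18.1 to 14.9 FPKM). The call of UBA6 was lost under 8 of the 11 alternatives. The ubiquitin genes share coding repeats, and how reads with several matches were assigned is not stated.

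USP14, which trims ubiquitin from proteins bound to the proteasome, was at 68.6 and 63.8 FPKM under DMSO and 55.1 and 49.8 FPKM under paroxetine (ENSG00000101557, chromosome 18, 158383 to 214629). The paroxetine libraries were both below the DMSO libraries, with a modest gap. The mean fell from 66.2 ± 3.37 to 52.4 ± 3.72 FPKM, a log2 change of -0.33 ± 0.08 (limma adjusted p = 0.0221). The call of USP14 was lost without DMSO replicate 1 (limma adjusted p = 0.0947) and without paroxetine replicate 2 (0.0779), and its adjusted p ranged from 0.0149 to 0.0947 over the alternatives. The other deubiquitinases that work on the proteasome belong to other families and were also called lower. PSMD14, the metalloprotease of the proteasome lid, fell from 81.1 ± 0.706 to 60.1 ± 1.02 FPKM (log2 change -0.43 ± 0.05, limma adjusted p = 0.00328), and UCHL5, a cysteine protease bound to its base, from 89.1 ± 2.07 to 58.1 ± 1.495 FPKM (log2 change -0.61 ± 0.06, limma adjusted p = 0.00131). Ratios of USP14 to PSMD14 stayed between 0.782 and 0.906 in the 4 libraries, with the groups overlapping. Those of USP14 to UCHL5 were 0.782 and 0.704 with DMSO and 0.966 and 0.842 with paroxetine, without overlap.

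USP39, a spliceosome protein that has the USP fold but lacks the catalytic residues, was at 36.7 and 40.3 FPKM under DMSO and 28.6 and 29.99 FPKM under paroxetine (ENSG00000168883, chromosome 2, 85602856 to 85649282). The groups did not overlap. The mean fell from 38.5 ± 2.56 to 29.3 ± 0.950 FPKM, a log2 change of -0.38 ± 0.08 (limma adjusted p = 0.0145). The call of USP39 was lost without DMSO replicate 2 (limma adjusted p = 0.0650) and without paroxetine replicate 1 (0.0587). Annotated exons of USP39 overlap C2orf68 and TMEM150A on the opposite strand. TMEM150A was called higher (6.04 to 12.8 FPKM) and C2orf68 was not called (22.3 and 23.8 FPKM), and their part in the values of USP39 was not tested.

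USP3, which removes ubiquitin from histone H2A, rose the most (ENSG00000140455, chromosome 15, 63504511 to 63594640). It was at 20.4 and 17.1 FPKM under DMSO and 37.7 and 37.1 FPKM under paroxetine. The lower paroxetine library was well above the higher DMSO library. The mean rose from 18.8 ± 2.37 to 37.4 ± 0.367 FPKM, a ratio of 1.99 and a log2 change of 0.96 ± 0.10 (limma adjusted p = 0.00190), with a 95% interval of 0.71 to 1.22. The antisense gene USP3-AS1 covers 22.7% of the annotated exon bases of USP3. It rose from 5.20 to 8.48 FPKM (limma adjusted p = 0.0295), and its part in the values of USP3 was not tested. Among the members, 13 share exon bases with a gene at a mean of 1 FPKM or more, including 4 of the 8 called (USP3, USP34, USP39 and USP14). Whether strand was used in counting is not stated, so how reads were divided between overlapping genes is unknown.

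USP34, a large enzyme that stabilises axin in WNT signalling, was at 40.8 and 39.9 FPKM under DMSO and 65.6 and 62.7 FPKM under paroxetine (ENSG00000115464, chromosome 2, 61187463 to 61470769). The libraries of each group lay close together and the groups were clearly apart. The mean rose from 40.4 ± 0.606 to 64.2 ± 2.04 FPKM, a log2 change of 0.66 ± 0.06 (limma adjusted p = 0.00128). The pseudogene AHSA2P on the opposite strand covers 18% of its annotated exon bases and was also called higher, from 41.4 to 52.2 FPKM.

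USP8, which acts on receptors such as EGFR at endosomes, was at 33.9 and 28.4 FPKM under DMSO and 42.3 and 50.0 FPKM under paroxetine (ENSG00000138592, chromosome 15, 50424380 to 50514419). The libraries of each group differed by several FPKM, but the groups did not overlap. The mean rose from 31.2 ± 3.87 to 46.1 ± 5.43 FPKM, a log2 change of 0.55 ± 0.12 (limma adjusted p = 0.0189). The call of USP8 was lost without DMSO replicate 2 (limma adjusted p = 0.0662) and without paroxetine replicate 2 (0.0643). Of its endosomal partners, STAM2 rose from 8.20 to 14.0 FPKM (limma adjusted p = 0.0179), and STAM was not called, with 10.4 and 11.4 FPKM. The call of STAM2 was lost under 3 of the 11 alternatives, with adjusted p up to 0.0714. EGFR itself was at 6.33 and 5.55 FPKM and was not called.

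USP32, a membrane-associated enzyme of the Golgi and endosomes, was at 16.5 and 16.9 FPKM under DMSO and 26.1 and 23.2 FPKM under paroxetine (ENSG00000170832, chromosome 17, 60179094 to 60422470). Both paroxetine libraries were above both DMSO libraries. The mean rose from 16.7 ± 0.306 to 24.7 ± 2.07 FPKM, a log2 change of 0.54 ± 0.09 (limma adjusted p = 0.00822). Its transcribed pseudogenes on the same chromosome were also measured. USP32P1 was at 12.7 and 10.8 FPKM under DMSO and 16.1 and 16.9 FPKM under paroxetine, and it was called higher with a log2 change of 0.46 (limma adjusted p = 0.0234). USP32P2 and USP32P3 were tested and not called, with limma adjusted p = 0.250 and 0.699. These copies are close in sequence to USP32, so reads could have been split between them, and the values of all 4 genes are uncertain to that extent.

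The remaining enzymes of the DNA damage response and of replication were not called. USP7 was at 46.8 ± 1.07 FPKM with DMSO and 45.1 ± 1.55 with paroxetine, and its libraries overlapped. Of the substrates that USP7 is known to protect, UHRF1 fell from 47.2 to 7.90 FPKM and DNMT1 from 75.0 to 37.9, while MDM2 was not called (20.8 and 20.5). GMPS, a metabolic enzyme that also binds USP7, fell from 76.5 to 59.7 FPKM, a call lost under 4 of the 11 alternatives. USP11, which acts on the BRCA2 pathway, was at 64.4 ± 1.92 and 58.8 ± 3.89 FPKM. USP28, which protects MYC and checkpoint proteins from degradation, was at 21.8 ± 2.08 and 23.2 ± 0.829 FPKM. Its substrates MYC and CLSPN fell, from 9.34 to 3.01 and from 11.2 to 2.69 FPKM. USP48, which acts on histone H2A modified by BRCA1, was at 24.96 ± 0.167 and 25.8 ± 2.66 FPKM. USP47, which acts on the repair polymerase POLB, was at 13.5 ± 1.67 and 15.1 ± 1.01 FPKM, and USP37, which acts on cyclin A, at 4.84 ± 0.263 and 4.22 ± 0.479. USP45, which acts on the repair nuclease subunit ERCC1, was lower in both paroxetine libraries, at 6.67 ± 0.519 and 4.57 ± 0.829 FPKM, but missed the threshold (log2 change -0.47 ± 0.16, limma adjusted p = 0.0721).

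Besides USP3, which rose and was grouped with the DNA damage enzymes together with USP48, 6 enzymes grouped under histone ubiquitin, chromatin and mitosis were tested. By limma 0 of these 6 were called, against 38.6% of all genes tested, and 6 genes are too few to set the group apart. Of them, USP16 and USP49 had an unadjusted p under 0.05, as had 16 of the 42 tested USP genes in all. The share of all genes under that unadjusted cut was not computed. USP22 was at 79.7 ± 2.13 and 75.1 ± 0.353 FPKM, a log2 change of -0.08 with a 95% interval of -0.22 to 0.05. Of the proteins that hold it in the SAGA module, ATXN7L3 was not called (38.5 and 38.5 FPKM), ATXN7 was not called (7.82 and 9.14), and ENY2 fell from 93.9 ± 7.06 to 60.9 ± 1.92 FPKM (limma adjusted p = 0.00273). The ratio of USP22 to ENY2 was 0.822 and 0.880 with DMSO and 1.26 and 1.21 with paroxetine. USP27X, an X-linked relative of USP22 that uses the same partners, was at 1.38 and 1.72 FPKM under DMSO and 2.23 and 3.41 FPKM under paroxetine. The paroxetine libraries were above the DMSO libraries but far apart, and the gene was not called (limma adjusted p = 0.104). USP16, an H2A deubiquitinase needed in mitosis, was at 14.5 ± 0.714 and 17.2 ± 0.503 FPKM (limma adjusted p = 0.0909). USP21, another H2A deubiquitinase, was at 30.7 ± 0.588 and 33.4 ± 2.01 FPKM. USP49, an H2B deubiquitinase, was at 2.00 ± 0.0285 and 3.19 ± 0.175 FPKM (limma adjusted p = 0.0695), and USP42 at 5.86 ± 0.469 and 5.24 ± 0.272.

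Of the enzymes of organelles and stress responses, 0 of 6 were called by limma, against 38.6% of all genes tested. A group of 6 genes is too small to be set apart by that count. USP25 alone among them had an unadjusted p under 0.05, a cut whose share over all genes was not computed. USP19, anchored in the endoplasmic reticulum, was nearly equal in all 4 libraries, from 34.9 to 36.1 FPKM. USP30, which sits on mitochondria and opposes mitophagy, was at 6.22 and 4.43 FPKM under DMSO and 6.46 and 8.87 FPKM under paroxetine. Its groups were barely apart, with a wide spread in each (limma adjusted p = 0.149). USP10, which binds the stress granule protein G3BP1, was at 46.2 ± 0.0615 and 42.9 ± 0.426 FPKM, while G3BP1 fell from 176 ± 5.40 to 113 ± 13.7 FPKM (limma adjusted p = 0.00501). BECN1, the autophagy protein that USP10 and USP13 are known to protect, was at 47.5 and 45.7 FPKM and was not called. USP20 and USP33, related enzymes that act on receptors taken up from the cell surface, were at 8.41 ± 0.0290 and 6.79 ± 0.409 and at 37.7 ± 1.42 and 39.8 ± 0.994 FPKM. USP25 was at 9.11 ± 0.856 and 7.14 ± 0.0758 FPKM (limma adjusted p = 0.0958). USP13, the relative of USP5, was at 8.41 and 8.45 FPKM under DMSO and 8.23 and 4.96 FPKM under paroxetine. Paroxetine replicate 2 was well below the other 3 libraries, and USP13 was not called with all of them (limma adjusted p = 0.273) but was called lower without paroxetine replicate 1 (0.0374). MITF was at 7.48 ± 0.349 FPKM with DMSO and 5.67 ± 0.436 with paroxetine and was not called (limma adjusted p = 0.0829).

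The signalling and membrane enzymes beyond USP34, USP8 and USP32 were not called either. USP4 and USP15, related enzymes of TGF-beta signalling that bind the splicing factor SART3, were at 27.5 ± 1.47 and 24.9 ± 0.881 and at 35.2 ± 5.12 and 42.7 ± 3.10 FPKM. SART3 fell from 32.5 ± 2.18 to 21.8 ± 0.810 FPKM (limma adjusted p = 0.00549). USP9X, a large X-linked enzyme that protects MCL1, was at 26.0 ± 2.34 and 29.1 ± 1.82 FPKM. USP12 and USP46, close relatives that also use WDR48 and WDR20, were at 17.0 ± 0.441 and 17.3 ± 0.918 and at 8.40 ± 0.469 and 9.72 ± 1.64 FPKM, and WDR20 was not called (7.95 and 8.998 FPKM). USP24 and USP38 were nearly the same in both groups, at 18.7 ± 1.73 and 19.1 ± 1.66 and at 9.35 ± 0.546 and 9.37 ± 0.300 FPKM. USP31, USP40 and USP43 had lower means with paroxetine, at 5.60 ± 0.0972 and 4.00 ± 0.329, at 7.12 ± 0.0515 and 5.54 ± 0.149 and at 3.26 ± 0.517 and 2.28 ± 0.733 FPKM. Their limma adjusted p values were 0.0721, 0.0926 and 0.227. USP35 was at 2.91 ± 0.604 and 4.57 ± 0.0782 FPKM, with both paroxetine libraries above both DMSO libraries (limma adjusted p = 0.0676). USP53 and USP54, related members known as divergent, were at 17.0 ± 1.398 and 13.5 ± 1.47 and at 8.65 ± 0.0196 and 9.24 ± 0.278 FPKM. USP18, which removes the ubiquitin-like protein ISG15, was at 2.32 ± 0.358 and 1.94 ± 0.321 FPKM with overlapping groups, and ISG15 was not called (5.81 and 6.87 FPKM). In the ISG15 list of 7 genes, STAT2, a partner of USP18 in interferon signalling, rose from 12.7 to 19.6 FPKM, IFNAR1, a chain of the interferon receptor, fell from 20.0 to 14.9, and 5 were not called. The call of IFNAR1 was lost under 6 of the 11 alternatives.

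For most genes that were not called the data bound the change. Of the 34, 22 had a 95% interval that lay inside 1.5-fold in both directions on the log2(FPKM + 1) scale, among them USP7 (-0.21 to 0.10), USP22 (-0.22 to 0.05), USP19 (-0.12 to 0.19), USP33 (-0.09 to 0.24), USP10 (-0.25 to 0.04) and USP11 (-0.31 to 0.04). The other 12 had intervals that reached 1.5-fold in at least 1 direction, and a change of that size is not bounded for them. Among all genes tested and not called, 48.4% had an interval inside 1.5-fold. Of the 34, 8 had an unadjusted p under 0.05, with 3 higher (USP16, USP35 and USP49) and 5 lower (USP25, USP31, USP40, USP45 and USP53). The share of all genes not called that pass this unadjusted cut was not computed, so the count of 8 is no result about the family.

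**Figure D3:**
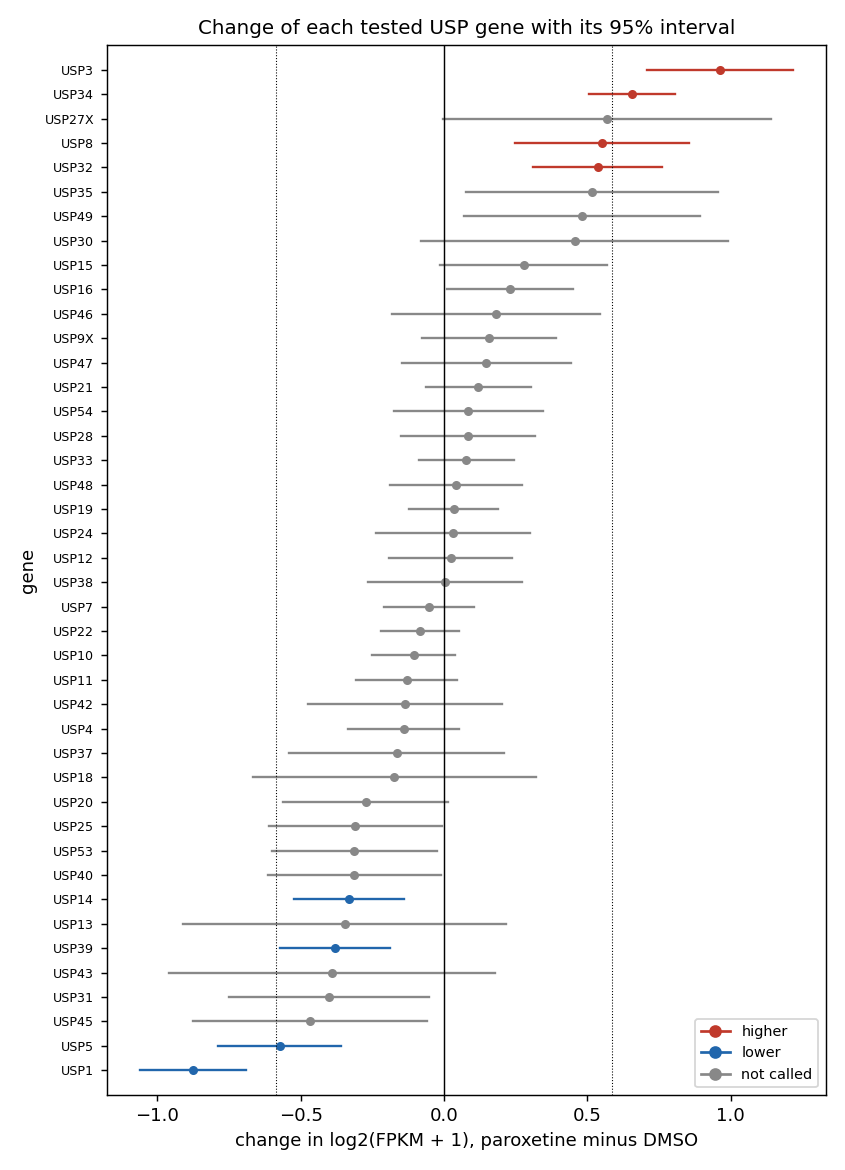
Change in log2(FPKM + 1), paroxetine minus DMSO, of the 42 tested USP genes (points) with 95% intervals from limma (lines), ordered by change and coloured by call. The dotted lines mark 1.5-fold in each direction. The changes run from -0.88 for USP1 to 0.96 for USP3, the 8 called genes lie toward the ends, and most grey intervals stay between the dotted lines.

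Of the 42 tested USP genes 8 were called, and of these only USP5 and USP32 belonged to a related pair that was compared. Whether related genes are called together therefore cannot be read from these pairs. Of the related pairs compared, USP5 was called lower and USP13 was not, and USP32 was called higher while USP6, which arose in part from it, was below the filter at 0.125 to 0.207 FPKM. The log2 changes had the same sign in USP5 and USP13 (-0.57 and -0.35) and in USP31 and USP43 (-0.40 and -0.39). They also did in USP4 and USP11 (-0.14 and -0.13) and in USP12 and USP46 (0.02 and 0.18). In several other pairs the log2 changes had opposite signs with neither gene called. USP16 and USP45 changed by 0.23 and -0.47, and the ratio of their FPKM values was 2.38 and 1.99 with DMSO and 4.22 and 3.40 with paroxetine. USP4 and USP15 changed by -0.14 and 0.28, with ratios of 0.904 and 0.682 with DMSO and 0.540 and 0.629 with paroxetine. USP25 and USP28 changed by -0.31 and 0.08, with ratios of 0.418 and 0.417 with DMSO and 0.299 and 0.319 with paroxetine. With 2 libraries against 2, an exact permutation test of such a ratio cannot give a two-sided p below 0.333, so the ratios are descriptions.

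Deubiquitinases outside the symbol rule held genes that rose and genes that fell. Their list has 37 genes, most of them of other families, with CYLD, USPL1 and PAN2, which have USP-type domains. Activity on ubiquitin was not checked for each gene of the list. Of these genes 34 were tested, with 12 higher and 8 lower, or 58.8% against 38.6% of all genes tested, and a median change of 0.22. No test compared them with the USP genes, and the list was chosen with earlier results of these data known. TNFAIP3, the NF-kappaB inhibitor A20, rose the most, from 4.57 ± 1.01 to 15.1 ± 0.340 FPKM, a log2 change of 1.54 ± 0.16 (limma adjusted p = 0.00173). MINDY1, which cuts long ubiquitin chains, rose from 8.28 ± 1.03 to 18.1 ± 0.957 FPKM (log2 change 1.05 ± 0.12, limma adjusted p = 0.00238), and YOD1, an OTU enzyme that works with the segregase VCP, from 12.0 ± 0.526 to 22.7 ± 0.501 FPKM (log2 change 0.87 ± 0.08, limma adjusted p = 0.00153). OTUD6B fell from 19.6 ± 0.694 to 10.3 ± 0.952 FPKM, a log2 change of -0.87 ± 0.10 (limma adjusted p = 0.00271). Of the other genes called higher, OTUD1 and OTUD5 kept their calls under all 11 alternatives. The calls of BAP1, JOSD1, JOSD2, VCPIP1, ZRANB1, MINDY2 and OTUB2 were each lost under 4 to 7 of the 11. Besides OTUD6B, UCHL5 and PSMD14, the genes called lower were OTUD4, BRCC3, STAMBPL1, MINDY3 and MINDY4. The calls of OTUD4, BRCC3, STAMBPL1 and MINDY3 were each lost under 6 to 8 of the 11 alternatives, and that of MINDY4 under 7 of the 10 in which it was tested. These counts depended on single libraries: without 1 library they were 6 higher and 4 lower (DMSO replicate 1 left out), 5 and 3 (DMSO replicate 2), 5 and 4 (paroxetine replicate 1) and 7 and 4 (paroxetine replicate 2). With 1 library left out, 23.5% to 32.4% of these genes were called, against 26.3% to 28.9% of all genes tested, and 14.3% to 19.0% of the USP genes.

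Partners and substrates of USP enzymes were described from lists of genes with a known link to a member. The lists were chosen with earlier results of these data known, so their shares are descriptions only. Of 12 tested partners, 2 were higher (WDR48 and STAM2) and 5 lower (ATAD5, G3BP1, ENY2, SART3 and GMPS), or 58.3% against 38.6% of all genes tested, with a median change of 0.06. Of 14 substrates 9 were called lower and 0 higher, or 64.3% against 38.6% of all genes tested (20.5% lower), with a median change of -0.82 against -0.0047 over all genes tested. The 5 not called were MDM2, MITF, RIPK1, BECN1 and EGFR. CHEK1, the checkpoint kinase that USP7 and USP1 are linked to, fell from 38.8 to 24.3 FPKM, a call lost without DMSO replicate 1 (limma adjusted p = 0.0536). Substrates are regulated by these enzymes as proteins, and the values here are RNA levels only. Many of the substrates that fell are themselves genes of replication and repair, and all 12 genes of the cycling list fell as well. The part of the cell cycle in the substrate result was not tested.

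**Figure D4:**
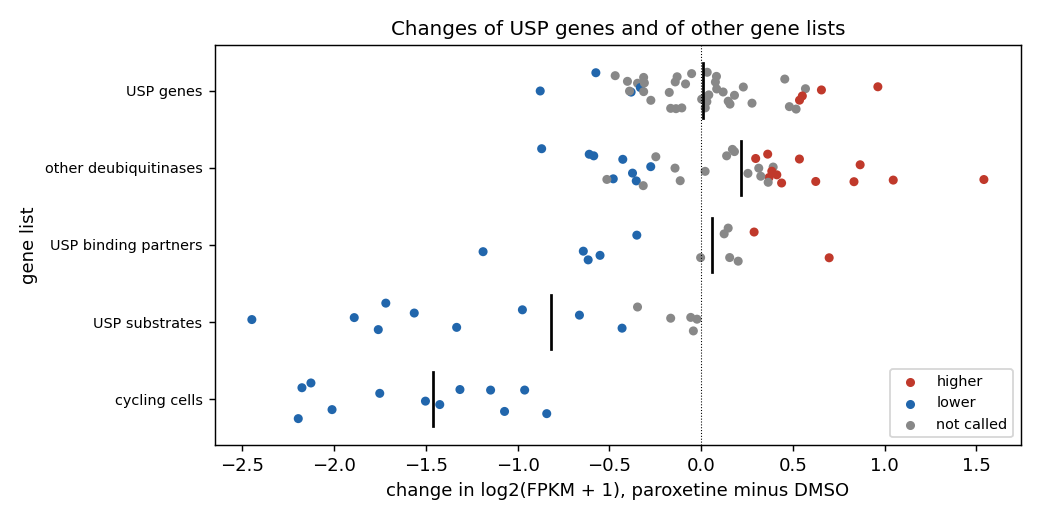
Change in log2(FPKM + 1), paroxetine minus DMSO, of each tested gene (points, coloured by call) in the USP family and 4 other lists, with the median of each list as a black bar. Vertical scatter within a list has no meaning. The USP genes centre on 0.01 within -0.88 to 0.96, while the substrates have a median of -0.82 and the cycling genes of -1.46.

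Promoter windows of the USP genes were searched on both strands for 5 motifs, with 38 of the 50 genes matched in RefSeq. An E2F word (TTTGGCGC, TTTCCCGC, TTTCGCGC or TTTGCCGC) was in 0 of the 38 windows and in 3.33% of all windows. The CHR word of cell cycle genes (TTTGAA) was in 3 windows (7.89%), those of USP14, USP30 and USP38, against 15.4% of all. The CLEAR word of lysosomal genes (TCACGTGA) was in 2 (5.26%), those of USP32 and USP28, against 1.04% of all, and in USP32 it began 3 bases before the annotated start. The word of ATF4 and C/EBP (TGATGCAA) and the CRE word (TGACGTCA) were in 0 of the 38, against 0.923% and 1.98% of all windows. The CLEAR and CRE words read the same on both strands, and none of the words contains another. A match is a description of the letters in the window and no evidence of binding. USP32 was called higher and USP28 was not, and of the genes with the CHR word USP14 was called lower and the other two were not called.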

How the data were processed

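The authors deposited gene-level FPKM values. The submitters' processing notes name CASAVA 1.4, HISAT2 2.1.0, Cufflinks 2.2.1 and the genome build hg38. How these tools were run, with which annotation, strand setting and library scaling, is not stated in the sources used here. The library text names a directional kit, ribosomal RNA depletion and poly(A) fractions, so which applied is not known. Library titles identified the 4 FPKM columns, while 12 further per-sample columns were left out.

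The 15511 genes that reached 1 FPKM in 2 or more libraries were tested in limma 3.58.1 (R 4.3.3) on log2(FPKM + 1), with the mean-variance trend, 2 residual and 3.32 prior degrees of freedom and no replicate block, two-sided. Alternatives changed the scaling, trend, filter, pseudocount, block and libraries. The fit was tested on simulated data. Locations are from GENCODE release 29 on GRCh38. Every USP gene was named, each called one with all 4 libraries. Of the other lists the called genes with the largest change and those against the majority were named, except in the cycling list. There MKI67 was named as an example, and other genes of that list had larger changes. Members, lists and motifs were chosen with earlier results of these data known. Tables and figures were made with Python 3.11.15, pandas 2.3.3 and matplotlib 3.10.9. A few genes and a promoter sequence are not reported here. The depth per library is unknown, so no counting interval is given.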

Additional observations from a re-analysis of the deposited data

How the results depend on the processing

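USP1, USP5, USP3, USP34 and USP32 kept their calls under all 11 alternatives (trimmed-mean scaling, a fit without the mean-variance trend, all genes unfiltered, a 5 FPKM minimum, a pseudocount of 0.1, a replicate block, rescaling without mitochondrial and abundant RNAs, and each library left out). USP8 and USP14 also lost theirs without the trend (limma adjusted p = 0.0524 and 0.0723) and with no filter (0.0641 and 0.0584), and USP14 on rescaling (0.0590). The cause was not tested. Without the trend USP49 and USP31 were called (0.0226 and 0.0401), and without DMSO replicate 2 USP15 was (0.0421). With the replicate block 4 USP genes were higher and 4 lower, as without it. The deviations of same-numbered libraries correlated at r = -0.0425 across genes. The labels give these libraries only a shared number, and the correlation cannot show whether they shared a culture or a day. With 1 library left out, where the lone library is assumed to vary like the other group, 3 to 4 were higher and 3 to 4 lower. The median change of the USP genes was 0.0619 on rescaling, where that of all genes was 0.0422, and -0.0561 to 0.0271 with 1 library left out. The share of all genes called was 33.9% without the trend, 16.1% with no filter, 34.7% with the replicate block and 33.8% on rescaling, against 38.6% in the main fit. Other deubiquitinases called lower numbered 5 without the trend and 3 with no filter, with the replicate block and on rescaling. With 1 library left out they numbered 3 to 4, and those higher 5 to 7. The change of USP38 was -0.00551 with trimmed-mean scaling. With 1 library left out that of USP38 ranged from -0.0507 to 0.0569, of USP28 from -0.00946 to 0.177, of USP24 from -0.0584 to 0.121, of USP12 from -0.0286 to 0.0740 and of USP48 from -0.0594 to 0.143, none of them called. FPKM values without read counts do not show how many fragments a low value rests on.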
